A study of Mus musculus with 64 samples.

Results

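Ribosome biogenesis genes encode the factors that transcribe ribosomal DNA, modify and cut the precursor RNA and assemble the 2 ribosomal subunits. The 53 genes described here were taken by symbol from the table of raw counts, with a mean of at least 5 CPM (counts divided by the library's total and multiplied by 1000000) over the 64 libraries. All 53 listed symbols met that level and all 53 passed the low-count filter, out of 36273 symbols in the table and 10723 genes tested. The choice by symbol used no fold change, but the list was drawn up with earlier results of these data known.

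The libraries are bulk 3′ mRNA-seq of mouse natural killer (NK) cells, lymphocytes of the innate immune system that were isolated from spleen and grown for 5 days in IL-2 and IL15:IL15Ra, both at a low dose. The cells were left untreated or were given prostaglandin E2 (PGE2, 100 ng/ml) or medium conditioned (CM) by control BRAFV600E cells, which produce PGE2. Unstimulated cells received the treatment for 5 h. In stimulated cells 1 h of treatment preceded 4 h of triggering through NK1.1, an activating receptor of NK cells. The genotypes were C57BL/6J (WT), Ptger2-/-Ptger4fl/fl (EP2KO) and GzmbCre Ptger2-/-Ptger4fl/fl (DKO). Ptger2 and Ptger4 encode the PGE2 receptors EP2 and EP4, and all groups of all genotypes shared the culture and its cytokines. The floxed Ptger4 alleles are carried by EP2KO and DKO cells alike, and in DKO cells deletion depends on Cre made from Gzmb, a gene of cytotoxic lymphocytes. WT and EP2KO had 4 libraries in each of 6 conditions, except 2 in unstimulated WT with PGE2 (replicates 2 and 4), and DKO had 3 in each.

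Ribosome production starts in the nucleolus, where RNA polymerase I copies the ribosomal DNA into a long precursor. Small nucleolar ribonucleoproteins (snoRNPs) guide its chemical modification, the small-subunit processome releases the precursor of the 40S subunit, and separate sets of factors build the 60S subunit. The pathway is known to be induced when lymphocytes are activated and to include many targets of the transcription factor Myc. EP2 and EP4 both couple to rising cyclic AMP.

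Library totals ran from 753973 to 1693750 counts, with a median of 1256163, and were lowest on average in unstimulated WT cells with CM (933828 counts, against 1197294 without treatment). NK markers summed to 5016 to 9156 CPM per library. Markers of B cells summed to 32.4 to 123 CPM, of T cells to 19.2 to 107, of macrophages and dendritic cells to 60.1 to 226, of neutrophils to 9.55 to 464, of erythroid cells to 0 to 40.9 and of melanoma to 0 to 7.98. Genes within a list differed widely. In the B cell list Cd79a averaged 0.0321 CPM and Ighm 60.2, and in the melanoma list Mlana averaged 0.0136 and Mitf 1.90. Itgax (52.8) and Lyz2 (32.1) were the highest of the macrophage and dendritic cell list. DKO libraries differed from the others in sex-linked genes, with Xist at 28.3 to 66.3 CPM against 476 to 970 in WT and 477 to 784 in EP2KO, so that DKO genotype and sex cannot be told apart. Ptger4 stood at 23.2, 30.5 and 43.1 CPM in untreated unstimulated WT, EP2KO and DKO cells, and Ptger2 at 23.1, 8.86 and 10.4 CPM in untreated stimulated cells. A 3′ tag outside the deleted part does not check a deletion. Whether replicates came from separate animals or cultures is not said in the labels. The p-values then measure only the spread between these libraries, and that spread may be technical.

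The 53 genes together took 0.595% ± 0.0248 of all counts in untreated unstimulated WT cells (SD, n = 4) and 1.56% ± 0.112 after NK1.1 stimulation (n = 4). The 4 unstimulated libraries lay between 0.565% and 0.625% and the 4 stimulated ones between 1.46% and 1.72%, with no overlap. PGE2 and CM went with lower shares in both states in WT. Unstimulated cells had 0.451% ± 0.00995 with PGE2 (n = 2) and 0.442% ± 0.0127 with CM (n = 4), and stimulated cells had 1.05% ± 0.101 and 1.00% ± 0.0611 (n = 4 each). In EP2KO cells the unstimulated shares were 0.689% ± 0.0551 untreated, 0.478% ± 0.0288 with PGE2 and 0.457% ± 0.0304 with CM, and the stimulated shares were 1.57% ± 0.208, 1.22% ± 0.110 and 1.06% ± 0.0618 (n = 4 each). In DKO cells the same 6 shares were 0.601% ± 0.0501, 0.567% ± 0.0519, 0.524% ± 0.0319, 1.47% ± 0.0849, 1.43% ± 0.147 and 1.21% ± 0.172 (n = 3 each). DKO libraries with PGE2 overlapped the untreated ones in both states, and those with CM did so when unstimulated, while stimulated DKO libraries with CM lay at 1.03% to 1.37% against 1.42% to 1.57%. The ratio of the stimulated to the unstimulated mean share was between 2.27 and 2.62 in all 9 pairs of genotype and treatment. Mitochondrial counts moved in the other direction in unstimulated WT cells, at 8.93% untreated, 10.8% with PGE2 and 11.1% with CM, and their part in the shares was not tested. With mitochondrial counts left out the 3 shares were 0.654%, 0.505% and 0.497%. In bulk libraries fewer cells of a type and less RNA per cell cannot be told apart.

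**Figure D1:**
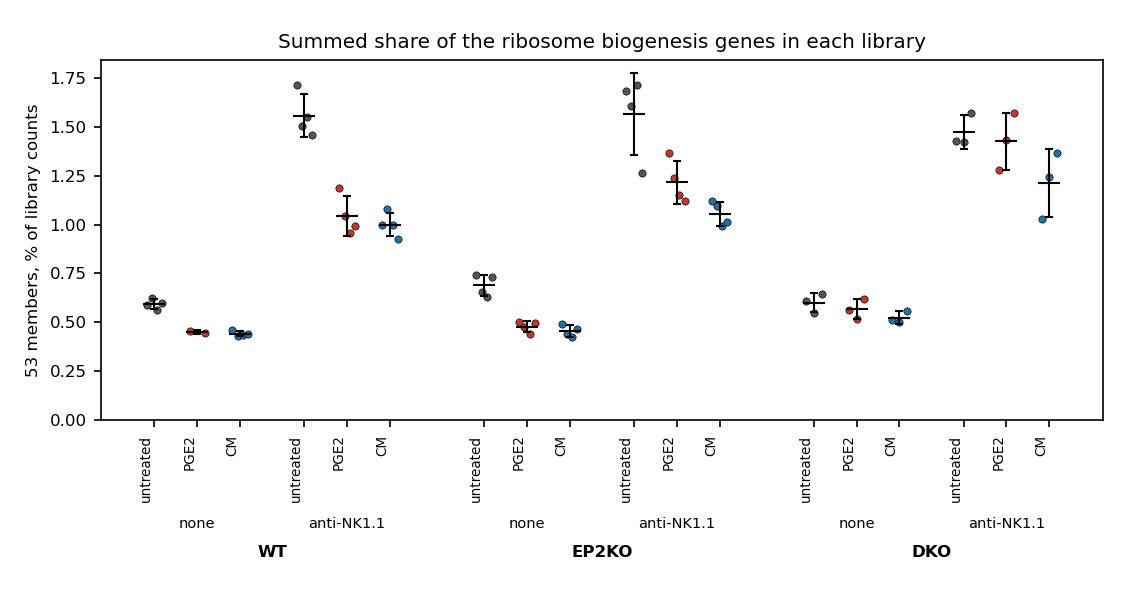
Percent of all counts in the 53 ribosome biogenesis genes (y axis) in each library (points) by genotype and stimulation state (x axis: none or anti-NK1.1), with mean ± SD, untreated in grey, PGE2 in red and CM in blue. Stimulated WT libraries sit near 1.56% untreated and near 1.00% to 1.05% with PGE2 or CM, while the 3 DKO treatments lie between 1.21% and 1.47%.

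Over the 18 group means, 49 of the 53 genes had every stimulated mean above every unstimulated mean, against 11.7% of all genes tested. The 4 exceptions were Bop1, Imp3, Nob1 and Nop10. For Nop10 the lowest stimulated mean was 160 CPM and the highest unstimulated mean 195 CPM, while for Imp3 the same means were 61.3 and 63.9 CPM. By median rank, untreated stimulated WT and EP2KO cells stood at the top, with the highest mean for 19 and 16 genes, followed by untreated and PGE2-treated stimulated DKO cells, with 5 and 12. Unstimulated WT cells with CM stood at the bottom, with the lowest mean for 29 genes, next to unstimulated WT cells with PGE2, lowest for 11. Stimulated cells given PGE2 or CM still ranked above all unstimulated groups, and untreated unstimulated cells of the 3 genotypes took ranks 10 to 12.

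**Figure D2:**
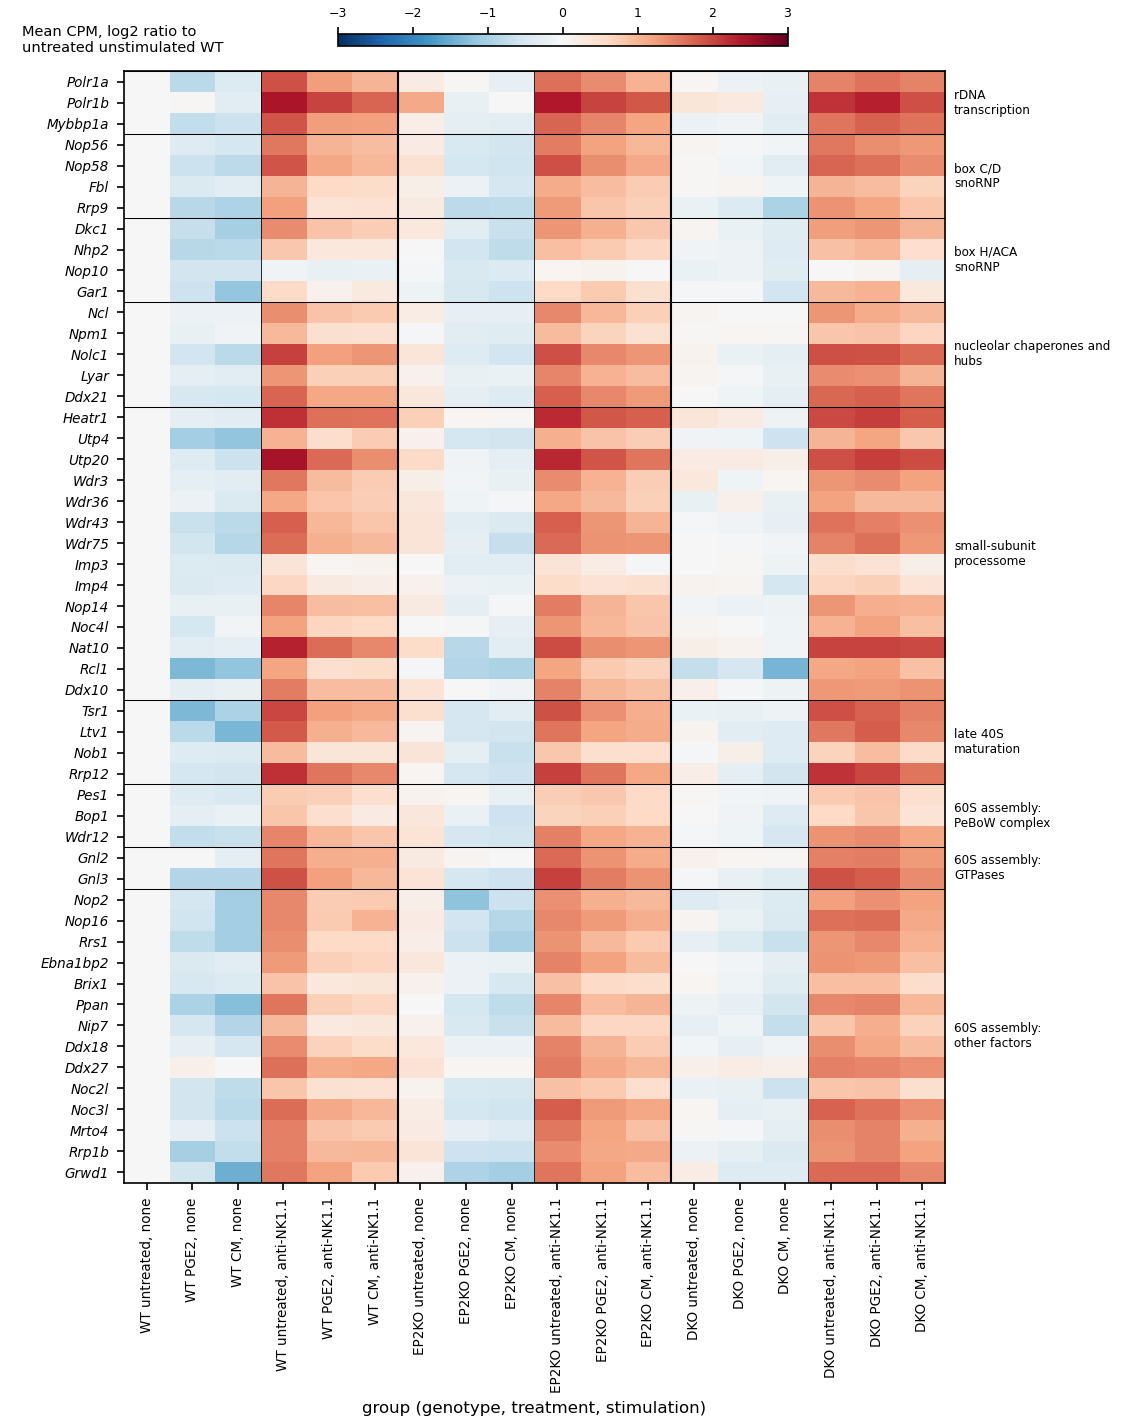
Mean expression of each of the 53 genes (rows, by role) in the 18 groups (columns), as the log2 ratio of its mean CPM to that in untreated unstimulated WT cells (first column, 0). Stimulated columns stand above unstimulated ones for 49 genes, with Nop10, Imp3, Bop1 and Nob1 the exceptions, and unstimulated WT cells with CM hold the lowest value for 29 genes.

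Since the genes moved together and include known Myc targets, their promoters were searched for the Myc E-box CACGTG, a palindrome that reads the same on both strands. RefSeq promoter windows (250 bases before to 50 after the gene's start, GRCm38.p6) matched 46 of the 53 genes. An E-box stood in 10 of them (21.7%), against 8.09% of the windows of 27025 genes and 12.1% of those of 8009 tested genes. The cyclic AMP response element TGACGTCA, also a palindrome that neither contains nor is contained in the E-box, stood in 2 (Ppan and Noc4l, 4.35%), against 2.03% and 3.98%. Sequences are printed below for 8 of the 10 genes with an E-box, picked with their changes known and not by a fixed rule. They are Nop2, Imp4, Utp20, Tsr1, Ltv1, Wdr43, Grwd1 and Pes1. The E-box is in capitals, all are printed 5′ to 3′ on the gene's strand, and it lies before the gene's start in the first 2 and within 50 bases after it in the others.
Nop2, chr6:125131773-125131878 (plus strand): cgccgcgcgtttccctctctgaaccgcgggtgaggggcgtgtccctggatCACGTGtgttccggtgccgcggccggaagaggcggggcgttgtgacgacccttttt
Imp4, chr1:34439658-34439763 (plus strand): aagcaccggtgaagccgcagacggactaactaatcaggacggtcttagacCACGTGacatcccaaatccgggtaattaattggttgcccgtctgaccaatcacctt
Utp20, chr10:88826765-88826794 (minus strand): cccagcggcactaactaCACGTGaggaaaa
Tsr1, chr11:74898092-74898121 (plus strand): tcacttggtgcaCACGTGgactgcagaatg
Ltv1, chr10:13193092-13193121 (minus strand): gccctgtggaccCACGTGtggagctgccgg
Wdr43, chr17:71616220-71616249 (plus strand): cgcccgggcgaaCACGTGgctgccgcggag
Grwd1, chr7:45830740-45830769 (minus strand): aagggccggagtcgCACGTGtgaaaccgga
Pes1, chr11:3963965-3963994 (plus strand): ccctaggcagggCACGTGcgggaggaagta
The log2 change of these 8 genes on stimulation of untreated WT cells ran from 0.76 for Imp4 and 0.88 for Pes1 to 2.59 for Utp20. The other E-box windows were those of Mybbp1a (2.01) and Utp4 (1.17), whose sequences are not printed. A match describes the letters only.

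The first comparison asks what triggering NK1.1 did to these genes in untreated WT cells. Of the 53 genes, 52 rose and none fell by edgeR's quasi-likelihood test at an adjusted p under 0.05, with a median log2 change of 1.59 (3.02-fold) against 0.01 over all genes tested. Over all tested genes 23% were called higher. Every library of one state lay above every library of the other for 49 genes, against a background of 13.8%. All 3 genes of ribosomal DNA transcription rose (median 2.01), as did all 4 box C/D snoRNP proteins (1.53), all 5 nucleolar chaperones and hubs (1.53), all 14 processome genes (1.63), all 4 late 40S factors (2.05) and all 19 genes of 60S assembly. The box H/ACA snoRNP proteins had the lowest median (0.84), with 3 of 4 called. One median of 60S assembly was also low, that of the 3 PeBoW genes Pes1, Bop1 and Wdr12 (0.95).

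Polr1b, a catalytic subunit of RNA polymerase I, stood at 5.91, 14.0, 1.95 and 1.67 CPM in the 4 untreated unstimulated WT libraries and at 41.1, 27.9, 31.7 and 28.0 after stimulation (log2 change 2.52 ± 0.33, SE, adjusted p = 5.55e-09). The groups did not overlap, and the unstimulated values rest on few counts. Mybbp1a, a nucleolar partner of MYB that is found at ribosomal DNA, stood at 63.6, 94.7, 97.4 and 77.8 CPM and then at 431, 360, 232 and 214 (2.01 ± 0.21, adjusted p = 6.49e-12). Stimulated replicates 1 and 2 were higher than replicates 3 and 4 for Mybbp1a, and the same was seen for Utp20 and Nat10.

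Nop58, a core protein of box C/D snoRNPs, which methylate ribose in ribosomal RNA, lies on chromosome 1 from 59684971 to 59719044 (GRCm38). It went from 222, 290, 224 and 239 CPM to 1026, 886, 943 and 765 (2.02 ± 0.14, adjusted p = 2.97e-19), with the lowest stimulated library far above the highest unstimulated one. Its partners Nop56 (1.7 ± 0.14), the methyltransferase Fbl (1.17 ± 0.17) and the U3 snoRNP protein Rrp9 (1.36 ± 0.20) also rose.

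Nhp2, a core protein of the box H/ACA snoRNPs that carry out pseudouridylation, stood at 247, 281, 244.5 and 254 CPM unstimulated and at 349, 313, 539 and 596 stimulated (0.96 ± 0.17, adjusted p = 5.17e-06). Here replicates 3 and 4 were the high ones. Nop10, the smallest protein of the same particle, on chromosome 2 from 112261926 to 112263269, was the one gene not called. It stood at 214, 195, 161 and 212 CPM unstimulated and 132, 119, 240 and 229 stimulated (0.03 ± 0.23, adjusted p = 0.93), so the stimulated libraries lay on both sides of the unstimulated ones. Dkc1, the pseudouridine synthase itself, rose by 1.55 ± 0.13 and Gar1 by 0.73 ± 0.25.

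Ncl (nucleolin, chromosome 1 from 86344719 to 86359400), an abundant nucleolar RNA-binding protein, went from 1472, 1419, 1434 and 1360 CPM to 4347, 4115, 3654 and 2939 (1.53 ± 0.15, adjusted p = 2.37e-13). The groups were widely apart, and the 4 stimulated libraries spread more than the unstimulated ones. Among the other hubs, Nolc1, a snoRNP chaperone, rose by 2.17 ± 0.15, the helicase Ddx21 by 1.87 ± 0.12 and Npm1 (nucleophosmin) by 1.11 ± 0.12.

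In the small-subunit processome, Utp20 (chromosome 10 from 88746607 to 88826804) had the largest rise of the 53 genes. It stood at 22.9, 24.7, 31.2 and 21.8 CPM and then at 179, 203, 87.7 and 90.7 (2.59 ± 0.26, adjusted p = 1.39e-12). Nat10, the acetyltransferase that modifies cytidines of 18S ribosomal RNA, stood at 14.0, 14.8, 22.4 and 15.9 CPM and then at 112, 107, 61.7 and 54.6 (2.44 ± 0.30, adjusted p = 2.07e-09). Neither gene's groups overlapped. Wdr43, a WD-repeat protein of the processome, went from 195, 212, 185 and 238 CPM to 775, 656, 774 and 679 (1.93 ± 0.14, adjusted p = 4.29e-18). Imp3, a protein of the U3 particle, had the smallest called change, from 56.9, 63.4, 63.3 and 66.9 CPM to 97.8, 52.9, 87.7 and 88.0 (0.52 ± 0.17, adjusted p = 0.00949). One stimulated Imp3 library lay below all 4 unstimulated ones, and the call was lost without untreated stimulated replicate 1 or 4 or unstimulated replicate 1.

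Among late 40S factors, Tsr1, which holds the maturing 40S particle before its release (chromosome 11 from 74898071 to 74909342), went from 30.3, 35.4, 42.9 and 41.0 CPM to 160, 161, 152 and 124 (2.13 ± 0.19, adjusted p = 2.03e-14). Ltv1, another factor of the maturing 40S particle, went from 34.0, 39.5, 31.2 and 43.5 CPM to 149, 129, 135 and 119 (1.96 ± 0.17, adjusted p = 5.68e-15). For both genes the lowest stimulated library stood far above the highest unstimulated one. Nob1, the endonuclease that makes the end of 18S ribosomal RNA, rose by 1.08 ± 0.18.

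In 60S assembly, the GTPase Gnl3 (nucleostemin, chromosome 14 from 31012433 to 31019152) went from 113, 142, 130 and 136 CPM to 498, 442, 552 and 480 (2.06 ± 0.14, adjusted p = 1.5e-19). Pes1, of the PeBoW complex, moved less, from 81.3, 66.7, 68.2 and 67.8 CPM to 101, 130, 116 and 132 (0.88 ± 0.13, adjusted p = 1.12e-07), still without overlap. Noc2l, a nucleolar transport factor of the early 60S particle, went from 145, 170.5, 150 and 202 CPM to 293, 229, 316 and 342 (0.96 ± 0.13, adjusted p = 1.34e-08). The rRNA methyltransferase Nop2 rose by 1.57 ± 0.18 and the assembly factor Ppan by 1.73 ± 0.18.

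**Figure D3:**
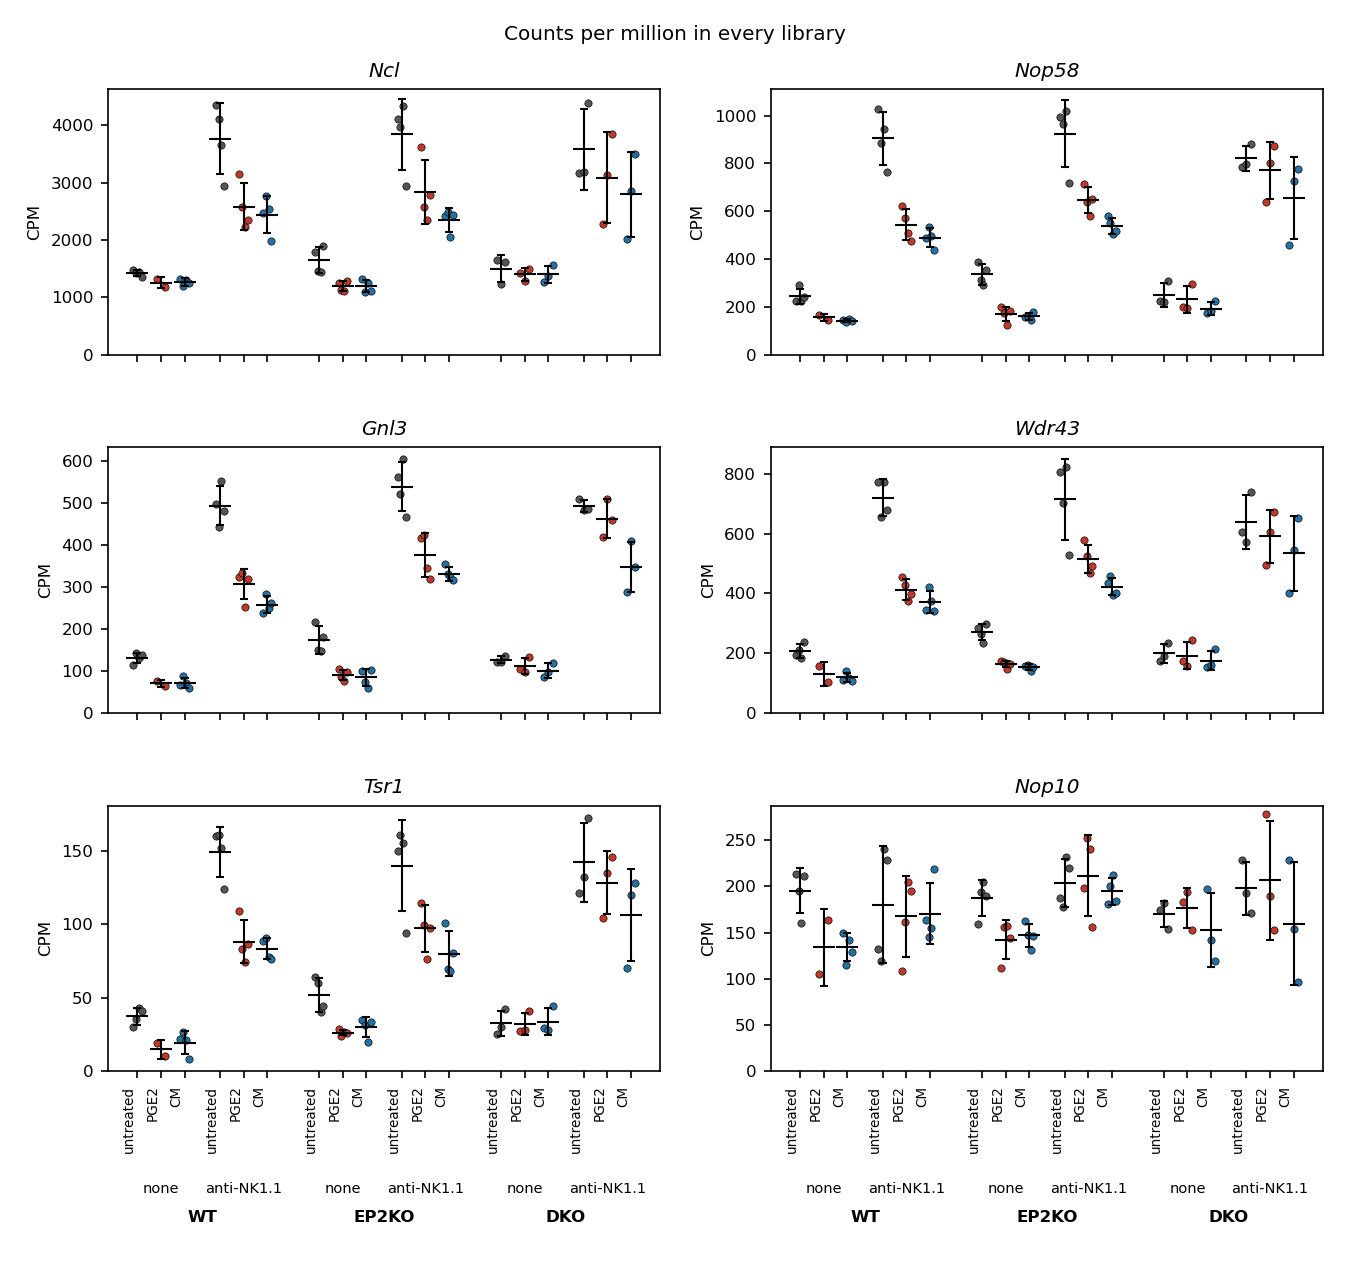
CPM (y axis) in each library (points) with mean ± SD for Ncl, Nop58, Gnl3, Wdr43, Tsr1 and Nop10, by genotype and state (x axis: none or anti-NK1.1), untreated in grey, PGE2 in red and CM in blue. For 5 of the genes untreated stimulated WT libraries have the highest mean within WT and the means with PGE2 and CM lie between them and the unstimulated means, while the Nop10 groups overlap.

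The same 52 of 53 genes as in WT, all but Nop10, rose on stimulation in untreated EP2KO cells (median 1.38, background 18.4% higher) and in untreated DKO cells (median 1.60, background 16.4%). Gnl3 rose by 1.80 ± 0.14 in EP2KO and 2.13 ± 0.16 in DKO, and Nop58 by 1.62 ± 0.14 and 1.89 ± 0.16. In WT cells kept in PGE2, 46 genes rose on stimulation (median 1.26, background 5.29%), and the 7 not called were Nop10, Gar1, Bop1, Nip7, Imp3, Imp4 and Nob1. In WT cells kept in CM, 51 rose (median 1.42, background 9.88%), all but Nop10 and Bop1.

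**Figure D4:**
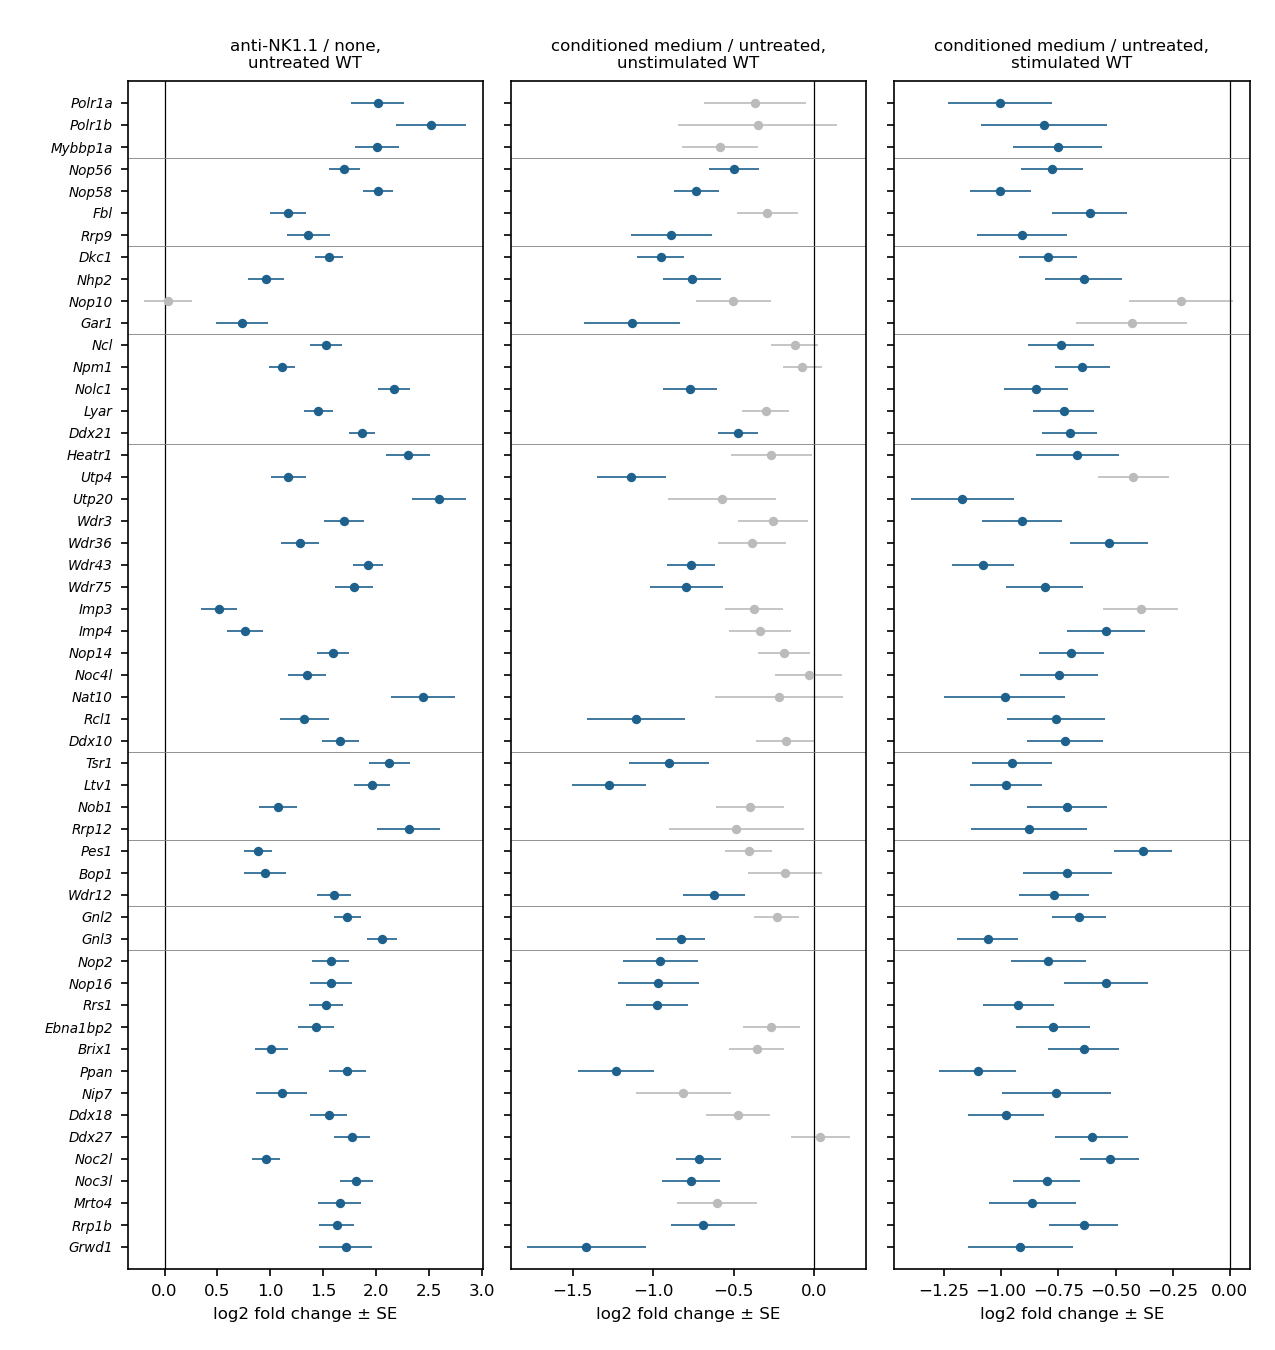
Log2 fold change ± SE (x axis) of each of the 53 genes (rows, by role) in WT cells for stimulation without treatment, for CM in unstimulated cells and for CM in stimulated cells, called genes in blue and others in grey. Stimulation raised 52 genes, CM lowered 24 in unstimulated and 49 in stimulated cells, and Nop10 was called in none of these.

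In unstimulated WT cells PGE2 lowered 10 of the 53 genes and raised none (median −0.49, against 0.01 over all genes tested; background 1.05% lower). The 10 were Tsr1, Rcl1, Utp4, Rrp1b, Ppan, Gnl3, Nhp2, Dkc1, Wdr43 and Nop58. CM lowered 24 and raised none (median −0.50, background 3.68% lower). The PGE2 group had 2 libraries and the CM group 4, and CM libraries were the shallower. By role, PGE2 and CM lowered 0 and 0 of 3 genes of ribosomal DNA transcription, 1 and 3 of 4 box C/D proteins, 2 and 3 of 4 box H/ACA proteins, 0 and 2 of 5 hubs, 3 and 4 of 14 processome genes, 1 and 2 of 4 late 40S factors, and 3 and 10 of 19 genes of 60S assembly.

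Tsr1 stood at 19.3 and 10.2 CPM with PGE2, below the 30.3 to 42.9 CPM of the untreated libraries (−1.30 ± 0.31, adjusted p = 0.00733). Rcl1, a processome protein, stood at 4.40 and 11.9 CPM with PGE2 against 19.96, 26.4, 17.5 and 19.2 untreated (−1.30 ± 0.38, adjusted p = 0.0376). Utp4, of the processome part that binds early precursor RNA, stood at 16.7 and 15.4 CPM against 35.5, 35.4, 24.4 and 35.1 (−1.0 ± 0.25, adjusted p = 0.012). In each of the 3 genes both PGE2 libraries lay below all 4 untreated ones. Gnl3 stood at 76.5 and 64.8 CPM with PGE2 (−0.85 ± 0.19, adjusted p = 0.00211) and Nop58 at 166 and 145 (−0.62 ± 0.18, adjusted p = 0.0324). Ncl, at 1321 and 1184 CPM with PGE2, was not called (−0.15 ± 0.18, adjusted p = 0.744). Smallest of all were the changes of Polr1b (0.04 ± 0.55) and of the GTPase Gnl2 (0.05 ± 0.17). With no filter on low counts 4 of the 10 were called, Gnl3, Nhp2, Rrp1b and Tsr1. The count also moved with single libraries: it was 2 without PGE2 replicate 4, 3 without PGE2 replicate 2, 5 without untreated replicate 2 and 6 without untreated replicate 4. The calls of Tsr1 and Gnl3 were lost without PGE2 replicate 4, that of Utp4 without either PGE2 library, and that of Rcl1 without PGE2 replicate 2.

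With CM, Grwd1, a histone-binding protein of 60S assembly, stood at 8.88, 4.14, 6.53 and 4.05 CPM against 14.0, 9.88, 16.6 and 25.1 untreated (−1.42 ± 0.37, adjusted p = 0.00901), and its call was lost without untreated replicate 4. Ltv1 stood at 16.8, 15.5, 5.22 and 20.2 CPM against 31.2 to 43.5 untreated (−1.27 ± 0.23, adjusted p = 6.58e-05). Ppan stood at 10.9, 15.5, 14.4 and 15.2 CPM against 30.3, 33.8, 28.3 and 42.7 (−1.23 ± 0.24, adjusted p = 0.000194). No CM library of these 3 genes reached the lowest untreated library. Gnl3 stood at 66.1, 87.9, 70.5 and 59.7 CPM with CM (−0.83 ± 0.15, adjusted p = 7.69e-05), Nop58 at 145, 134, 149 and 142 (−0.73 ± 0.14, adjusted p = 0.00025), and Nhp2 at 173, 123, 134 and 158 (−0.76 ± 0.18, adjusted p = 0.00335). All of these values lay below those of the untreated libraries. Ncl, at 1325, 1190, 1308 and 1241 CPM, was not called (−0.12 ± 0.15, adjusted p = 0.662), and Noc4l (−0.03 ± 0.21) and Ddx27 (0.04 ± 0.18) had the smallest changes. Summed B cell markers were lower in these groups too, at 81.0 CPM untreated, 37.3 with PGE2 and 46.9 with CM, and their part in the result was not tested.

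In stimulated WT cells more of the genes were called with either treatment. The median SE was smaller there, at 0.166 against 0.247 unstimulated for PGE2 and 0.165 against 0.201 for CM. Counts of calls therefore do not compare the size of the effects. PGE2 lowered 45 of 53 (median −0.71, −0.05 over all genes tested; background 9.63% lower) and CM lowered 49 (median −0.76, −0.04 over all genes; background 9.22%), and neither raised any. Not called with PGE2 were Nop10, Gar1, Wdr36, Bop1, Pes1, Polr1b, Grwd1 and Imp3, and with CM Nop10, Gar1, Utp4 and Imp3. By role, PGE2 and CM lowered 2 and 3 of 3 genes of ribosomal DNA transcription, 4 and 4 of 4 box C/D proteins, 2 and 2 of 4 box H/ACA proteins, 5 and 5 of 5 hubs, 12 and 12 of 14 processome genes, 4 and 4 of 4 late 40S factors, and 16 and 19 of 19 genes of 60S assembly. The 4 PGE2 libraries all lay below the 4 untreated ones for 23 genes (background 5.64%), and the 4 CM libraries for 28 (background 5.27%). Replicate numbers pair the libraries for PGE2 here, and with the replicate block the 45 became 49.

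Ppan stood at 73.9, 47.5, 50.1 and 48.3 CPM with PGE2 and at 49.4, 51.7, 55.4 and 50.5 with CM, against 100.0, 88.6, 104 and 116 in untreated stimulated cells (−1.03 ± 0.17, adjusted p = 3.26e-06, and −1.10 ± 0.17, adjusted p = 8.27e-07). Wdr43 stood at 454, 427, 373 and 397 CPM with PGE2 and at 345, 423, 376 and 341 with CM, against 656 to 775 (−0.94 ± 0.14, adjusted p = 2.21e-07, and −1.08 ± 0.14, adjusted p = 7.19e-09). In both genes every treated library was below every untreated one and above every untreated unstimulated one. Rrp9 stood at 48.6, 51.0, 63.6 and 58.8 CPM with PGE2 against 83.6, 77.9, 107 and 119 (−0.94 ± 0.20, adjusted p = 0.00031). Utp20 stood at 78.9, 69.5, 73.9 and 43.5 CPM with CM against 87.7 to 203 (−1.17 ± 0.23, adjusted p = 0.000105). Neither pair of groups overlapped, though the untreated Utp20 libraries spread widely.

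Nop58 stood at 621, 570, 510 and 475 CPM with PGE2 and at 488, 533, 498 and 439 with CM, against 765 to 1026 untreated (−0.86 ± 0.13, adjusted p = 8.91e-07, and −1.0 ± 0.13, adjusted p = 3.07e-08). Gnl3 stood at 322, 332, 253 and 319 CPM with PGE2 and at 238, 283, 249 and 260 with CM, against 442 to 552 (−0.82 ± 0.13, adjusted p = 2.21e-06, and −1.06 ± 0.13, adjusted p = 5.68e-09). Both genes showed the same order of untreated, then treated, then unstimulated libraries, without overlap. Ncl stood at 3150, 2580, 2218 and 2355 CPM with PGE2 and at 2467, 2768, 2539 and 1988 with CM, against 2939 to 4347. It was called with both (−0.67 ± 0.14, adjusted p = 0.000385, and −0.74 ± 0.14, adjusted p = 0.000107), although the highest PGE2 library of Ncl passed the lowest untreated one.

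Tsr1 stood at 109, 83.0, 74.2 and 86.9 CPM with PGE2 and 88.5, 90.7, 77.9 and 76.6 with CM, against 124 to 161 (−0.88 ± 0.18, adjusted p = 0.000119, and −0.95 ± 0.17, adjusted p = 3.61e-05). Pes1 stood at 125, 109, 120 and 115 CPM with PGE2, within its untreated range (−0.17 ± 0.13, adjusted p = 0.436), and at 118, 90.7, 104 and 87.1 with CM (−0.38 ± 0.13, adjusted p = 0.0316). Nop10 stood at 108, 162, 205 and 195 CPM with PGE2 and 164, 145, 155 and 219 with CM, and neither change was called (−0.25 ± 0.23, adjusted p = 0.536, and −0.21 ± 0.23, adjusted p = 0.607). Nop10 libraries of all 3 treatments overlapped. Some calls rest on 1 library. Noc2l with PGE2 and Nhp2 with either treatment were not called without untreated stimulated replicate 4, nor Mybbp1a with either treatment without replicate 1. The call of Pes1 with CM was lost without any one of untreated replicates 2, 3 and 4 or CM replicates 2 and 4.

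Treated stimulated WT cells were also set against untreated unstimulated ones, with no test. The mean was higher for 52 of 53 genes with either treatment, all but Nop10 (49.8% of all genes tested with PGE2 and 49.6% with CM). Every treated stimulated library lay above every untreated unstimulated one for 43 genes with PGE2 (background 13.1%) and 42 with CM (background 12%). The means of both treated groups were below the untreated stimulated mean for 53 of 53 genes, against 33.7% of all genes tested.

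PGE2 and CM were compared directly in WT. By edgeR 0 of 53 genes were called in either state, 0 had an unadjusted p under 0.05, and DESeq2 called 0. Over all genes 0% were called in unstimulated and 0.00933% in stimulated cells. The unadjusted counts were 295 and 491 of 10723 genes. The median difference (CM minus PGE2, log2) was −0.03 unstimulated and −0.04 stimulated. The unadjusted 95% interval of a single gene's difference reached on median 0.51 to either side unstimulated and 0.333 stimulated. Differences within those limits are not resolved, and larger ones can also miss the adjusted threshold.

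Whether the treatment effect differs between stimulated and unstimulated WT cells was tested as an interaction. By edgeR 0 genes were called for PGE2 (median −0.23, 6 at an unadjusted p under 0.05, DESeq2 0; background 1.31% either way) and 0 for CM (median −0.23, 11 at an unadjusted p under 0.05; background 2.19%). Those backgrounds are shares of calls. At an unadjusted p under 0.05 edgeR gave 1315 of all 10723 genes for PGE2 and 1830 for CM. DESeq2 called 2 for CM, Npm1 (−0.57 ± 0.15, adjusted p = 0.00799) and Ncl (−0.61 ± 0.20, adjusted p = 0.0412). Without stimulated WT PGE2 replicate 1 edgeR called Ddx27 for PGE2 (−0.99 ± 0.27), and without untreated stimulated WT replicate 3 it called Npm1 for CM (−0.62 ± 0.18). With the replicate block edgeR called 2 genes for PGE2, Ddx27 (−0.89 ± 0.20, adjusted p = 0.00321) and Ncl (−0.57 ± 0.18, adjusted p = 0.0489). The block called 3 for CM, Npm1 (−0.56 ± 0.13, adjusted p = 0.00287), Ncl (−0.61 ± 0.16, adjusted p = 0.00594) and Ddx27 (−0.64 ± 0.18, adjusted p = 0.0136). Replicate numbers pair the libraries for PGE2 in stimulated WT cells, but were not shown to do so for the other treatment effects in WT. For the rest of the 53 genes, a call in stimulated cells and none in unstimulated ones does not show a larger effect.

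EP2KO cells, which keep EP4, were asked whether they still respond. PGE2 lowered 18 of 53 genes in unstimulated EP2KO cells (median −0.56, background 1.4% lower) and 18 in stimulated ones (median −0.46, background 3.9%), and CM lowered 24 (median −0.65, background 2.14%) and 40 (median −0.63, background 5.91%). None rose. The largest called falls with PGE2 in unstimulated cells were those of Nop2 (−1.35 ± 0.23, adjusted p = 2.09e-05) and Nat10 (−1.34 ± 0.39). Nop2 stood at 33.3, 27.5, 22.9 and 32.3 CPM untreated and at 9.99, 11.6, 12.3 and 10.4 with PGE2, the latter far below. Nop58 stood at 387, 313, 291 and 354 CPM untreated, 198, 175, 126 and 182 with PGE2 (−0.95 ± 0.14, adjusted p = 1.19e-06) and 158, 161, 143 and 180 with CM (−1.02 ± 0.14, adjusted p = 2.13e-07). No treated Nop58 library reached the untreated range.

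In stimulated EP2KO cells Nop58 stood at 996, 967, 1019 and 720 CPM untreated, 712, 641, 582 and 650 with PGE2 (−0.63 ± 0.13, adjusted p = 0.000585) and 578, 550, 503 and 517 with CM (−0.90 ± 0.13, adjusted p = 6.52e-07). Gnl3 stood at 560, 520, 604 and 466.4 CPM untreated, 415, 422, 345 and 317 with PGE2 (−0.63 ± 0.13, adjusted p = 0.000496) and 355, 330, 322 and 317 with CM (−0.82 ± 0.13, adjusted p = 4.1e-06). Untreated replicate 4 was the lowest of its group for both genes, and also for Ncl, Wdr43 and Tsr1. The counts move with the settings and with single libraries. For PGE2 in stimulated cells the 18 became 8 with library totals in place of the trimmed-mean scaling and 32 with the replicate block. It became 25 without untreated stimulated replicate 4, 9 without replicate 1 or 3, and 11 without replicate 2 or without PGE2 replicate 3. For CM the 40 became 25 without untreated stimulated replicate 1, 26 without replicate 2 and 23 without CM replicate 4. Neutrophil markers summed to higher means in EP2KO groups than in others, up to 247 CPM, and their part in the result was not tested.

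The effects in EP2KO and WT were compared by the interaction of treatment and genotype, and by edgeR 0 of 53 genes were called for either treatment in either state (1 and 3 genes at an unadjusted p under 0.05 for PGE2 and CM unstimulated, 2 and 1 stimulated; DESeq2 0 in all 4; background 0% in all 4). Unadjusted counts over all 10723 genes were 272 and 346 unstimulated and 465 and 266 stimulated. The median differences (EP2KO minus WT, log2) were −0.07 and −0.08 for PGE2 and CM unstimulated and 0.27 and 0.12 stimulated. For PGE2 in stimulated cells the difference was positive for 53 of 53 genes, with Gar1 (0.71 ± 0.34, adjusted p = 1) and Rrs1 (0.48 ± 0.22, adjusted p = 1) at an unadjusted p under 0.05. All 53 differences share the same libraries, so their common sign is 1 observation. Over all 10723 genes 5905 differences were positive.

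DKO cells lack EP2 and carry the Cre that deletes EP4. By edgeR PGE2 changed 0 of 53 genes in unstimulated DKO cells (median −0.08) and 0 in stimulated ones (median 0.03), with 0 genes at an unadjusted p under 0.05 and 0 calls by DESeq2 in both. CM changed 0 in unstimulated cells (median −0.29, 9 at an unadjusted p under 0.05, DESeq2 0) and 0 in stimulated cells (median −0.29, 19 at an unadjusted p under 0.05). Over all genes 0% were called in the first 3 of these comparisons and 0.0746% with CM in stimulated cells. An unadjusted p under 0.05 was met by 184 and 485 of all 10723 genes with PGE2 and CM unstimulated, and 260 and 723 stimulated. The estimates with CM were negative for 47 genes unstimulated and 52 stimulated, against 5350 and 5341 of all 10723 genes. With PGE2 they were negative for 37 and 23 of the 53, against 5369 and 5245 of all genes. Within each comparison the 53 estimates share the same libraries, so a common sign is 1 observation. In stimulated cells with CM, Gnl3 had the lowest p (−0.54 ± 0.15, adjusted p = 0.195). Replicate numbers pair the libraries in this comparison, and with the replicate block 1 gene was called, Gnl3 (−0.54 ± 0.13, adjusted p = 0.0156). DESeq2 also called Gnl3 alone (−0.53 ± 0.14, adjusted p = 0.0391).

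Gnl3 stood at 122, 121 and 135 CPM in untreated unstimulated DKO cells, 104, 97.8 and 132 with PGE2 and 86.2, 96.3 and 119 with CM. After stimulation it stood at 508, 482 and 485 CPM untreated, 418, 509 and 458 with PGE2 and 288, 408 and 346 with CM. The PGE2 libraries overlapped the untreated ones in both states, and the stimulated CM libraries all lay below. Nop58 stood at 787, 798 and 882 CPM stimulated without treatment, 639, 803 and 873 with PGE2 and 459, 729 and 779 with CM. Ncl stood at 3165, 3175 and 4394 CPM, then 2277, 3127 and 3851, then 2018, 2859 and 3500. Replicate 1 was the lowest in each of the treated stimulated groups for both genes. At 3 libraries a group the unadjusted 95% interval of a single gene reached on median 0.361 to 0.427 to either side. Changes smaller than that are not resolved. A call needs an adjusted p under 0.05, so larger changes can go uncalled too, as that of Gnl3 with CM in stimulated cells did by edgeR.

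**Figure D5:**
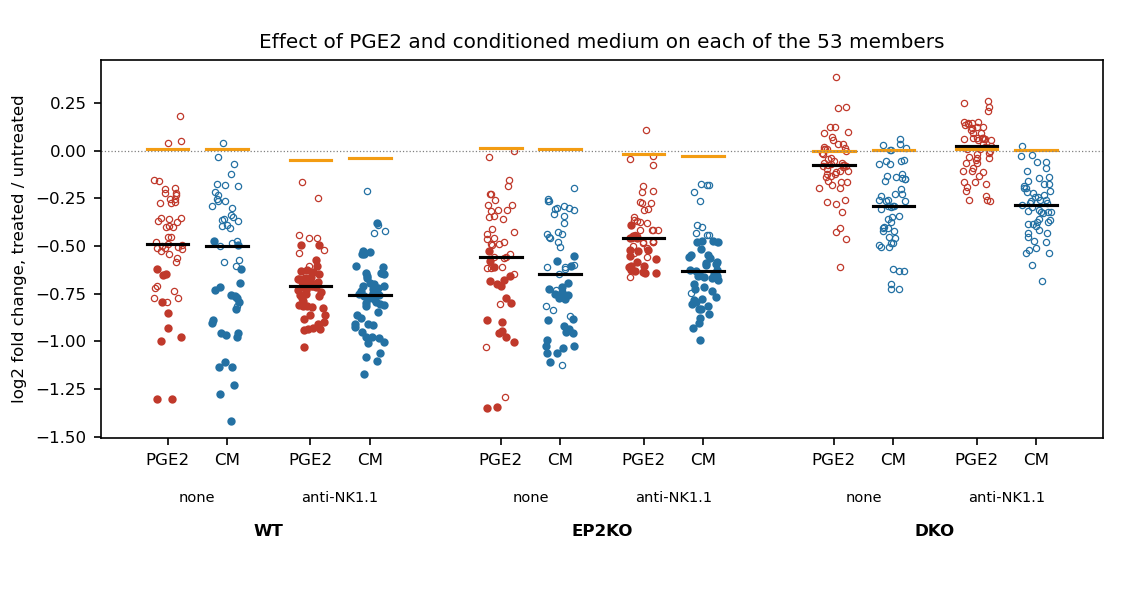
Log2 fold change (y axis) of each of the 53 genes (points, filled where called) for PGE2 and CM by genotype and state, with the median of the 53 genes as a black bar and that of all genes tested as an orange bar. The 53 genes lie mostly below 0 in WT and EP2KO, with medians from −0.76 to −0.46, and around −0.29 to 0.03 in DKO.

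The difference between DKO and EP2KO in the response was tested gene by gene. For PGE2 in unstimulated cells 2 of 53 genes differed by edgeR (background 0.121% higher), Nop2 (DKO minus EP2KO, log2 1.47 ± 0.33, adjusted p = 0.016) and Nop58 (0.85 ± 0.21, adjusted p = 0.0433), with a median of 0.44 over the 53 genes. Nop2 stood at 14.0, 22.0 and 23.0 CPM in untreated and 23.2, 15.9 and 24.2 in PGE2-treated unstimulated DKO cells, so that the groups overlapped, and Nop58 at 224, 218 and 306 and then 199, 196 and 297. The count was 0 without untreated DKO replicate 1 or without PGE2-treated DKO replicate 3. It was 1 without untreated EP2KO replicate 1 or 4, PGE2-treated EP2KO replicate 2 or 3, untreated DKO replicate 2 or PGE2-treated DKO replicate 1.

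The other 3 differences between DKO and EP2KO gave 0 calls by edgeR. They were CM unstimulated (median 0.35, 13 genes at an unadjusted p under 0.05, DESeq2 0; background 0.056% higher), PGE2 stimulated (median 0.47, 23 genes, DESeq2 1; background 0.466%) and CM stimulated (median 0.35, 11 genes, DESeq2 0; background 0.205%). In the same order, 561, 911 and 772 of all 10723 genes had an unadjusted p under 0.05, where the backgrounds count calls. The gene called by DESeq2 for PGE2 in stimulated cells was Ltv1 (0.74 ± 0.23, adjusted p = 0.0473), which edgeR gave at 0.73 ± 0.24 (adjusted p = 0.154). These comparisons share their untreated libraries with the effects above, and DKO and EP2KO also differ in sex.

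Between untreated genotypes edgeR called 0 of 53 genes without the replicate block. The median of EP2KO minus WT was 0.23 unstimulated (14 genes at an unadjusted p under 0.05, DESeq2 0; background 0.0653% either way) and 0.00 stimulated (0 genes, DESeq2 0; background 0.0746%). That of DKO minus EP2KO was −0.28 unstimulated (17 genes, DESeq2 0; background 0.056%) and −0.08 stimulated (0 genes, DESeq2 0; background 0.0839%). The falls with treatment in unstimulated EP2KO cells are thus measured from untreated levels that were on median higher than in WT. With the block edgeR called 2 of these differences between unstimulated EP2KO and WT, Heatr1 (0.70 ± 0.18, adjusted p = 0.0179) and Nop58 (0.44 ± 0.11, adjusted p = 0.0166), and 3 between unstimulated DKO and EP2KO, Nop58, Tsr1 and Wdr43. A block within genotype takes the spread between replicate numbers out of the error of a comparison between genotypes.

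The wider pathway was followed with 123 other tested genes of ribosome biogenesis. On stimulation of untreated WT cells 92 rose and 1 fell (median 0.85), against 2465 and 2043 of all 10723 genes tested. The AAA ATPase Mdn1, which remodels the 60S particle, rose by 2.86 ± 0.31, Tma16 by 2.26 ± 0.25 and the processome protein Nol10 by 2.11 ± 0.19, while Trmt112, a partner of methyltransferases, fell by 0.66 ± 0.20 on the log2 scale. In unstimulated WT cells PGE2 lowered 3 (Rpp14, Nifk and Utp18) and CM lowered 18, among them Cd3eap, an RNA polymerase I subunit (−1.07 ± 0.23), and Bysl (−0.98 ± 0.29). Both raised 1, Riok1, a kinase of late 40S maturation (0.82 ± 0.16 and 0.72 ± 0.14). Over all genes tested PGE2 lowered 113 (1.05%) and raised 205 there, and CM lowered 395 (3.68%) and raised 488. In stimulated WT cells each treatment lowered 59 of the 123 and raised none, with Nol10 at −1.05 ± 0.17 for PGE2 and −1.06 ± 0.17 for CM. Over all genes tested PGE2 lowered 1033 (9.63%) and raised 643 in that state, and CM lowered 989 (9.22%) and raised 665. The genes of cytosolic ribosomal proteins, the structural products of the pathway, showed few calls. Of 76 tested, 1 rose and 3 fell on stimulation of untreated WT cells (median −0.24). In unstimulated WT cells edgeR called 0 with PGE2 (0 at an unadjusted p under 0.05) and 0 with CM (1 at an unadjusted p under 0.05). Unadjusted counts over all 10723 genes were 1483 and 2456. Calls with PGE2 were rare over all genes too, so 0 of 76 calls there says little. In stimulated WT cells PGE2 lowered 1, and CM raised 3 and lowered 1. Their medians under the treatments lay between −0.14 and −0.06.

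Genes with a like pattern were sought by the correlation of each gene's 18 group means with the average profile of the 53 genes, over 7282 genes. This describes group means that share libraries and carries no test. The profile was averaged from the 53 genes themselves, so their own r and ranks are raised in part by construction. The 53 genes had a median r of 0.984, with Nop10 lowest at 0.809, and 26 of the 100 most similar genes were among the 53 and 19 more were other pathway genes. Outside the 53, the most similar were Ccdc86 (0.996), the exosome nuclease Dis3 (0.996), Ttc37 (0.995) and G3bp1 (0.995). Srm, the spermidine synthase, stood at 0.993. The 100th most similar gene had an r of 0.984, and Myc had a lower one of 0.976. Its level in WT cells was 54.2 ± 7.37 CPM untreated and unstimulated (SD, n = 4), 17.7 ± 2.68 with PGE2 (n = 2), 22.8 ± 9.90 with CM (n = 4), and after stimulation 133 ± 12.5 untreated, 69.1 ± 14.1 with PGE2 and 61.5 ± 4.93 with CM (n = 4 each). In EP2KO cells Myc stood at 59.1 ± 9.47, 31.6 ± 5.02 and 31.4 ± 10.95 CPM unstimulated (untreated, PGE2 and CM, n = 4 each). Stimulated EP2KO cells had 141 ± 34.5, 91.5 ± 1.80 and 85.1 ± 20.5 CPM in the same order (n = 4 each). In DKO cells Myc stood at 39.1 ± 2.47, 38.9 ± 5.63 and 33.7 ± 8.07 CPM unstimulated and 119 ± 15.7, 117 ± 12.5 and 90.3 ± 18.02 stimulated (untreated, PGE2 and CM, n = 3 each).

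Of the 53 genes, 8 hold snoRNA genes within them on the same strand, 23 in all (GENCODE M21, GRCm38): 5 in Nop56, 4 in Nop58, 3 each in Ncl, Gnl3 and Wdr43, 2 each in Ppan and Tsr1, and 1 in Dkc1. Among them are Snord70 and Snord11 in Nop58, Snord82 and Snora75 in Ncl and Snord19 and Snord69 in Gnl3. In WT cells the median log2 change of these 8 hosts was 1.83 on stimulation, against 1.57 for the other 45, and −0.98 with CM after stimulation, against −0.73. The ranges overlapped, at 1.53 to 2.13 and 0.03 to 2.59 on stimulation, and no test was made. Counts of the host transcripts, not of the snoRNAs, are described. Reads of Ddx18, Fbl, Nop56 and Wdr12 could be shared with near-identical copies of their 3′ ends, and those of Gnl3, Nop56, Heatr1, Dkc1, Nhp2, Wdr3, Bop1, Rrp9, Wdr12 and Tsr1 with overlapping genes on the opposite strand that averaged over 5 CPM, since counting by strand is not given in the sources used here. The values of these 12 genes are uncertain to that extent.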

How the data were processed

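Raw counts per gene symbol of 64 bulk 3′ mRNA-seq libraries were used as the authors deposited them, in 1 table of 36273 symbols. Per the labels' protocols, reverse transcription used oligo-dT primers with sample barcodes and unique molecular identifiers. The submitters' processing notes name GRCm38 (mm10) as build and DESeq2 as a tool, with no role. Not given in the sources used here were the aligner, the counter, the annotation release, strand-specific counting and whether counts are molecules or reads.

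Each library's group came from its title. Genes were filtered with edgeR's filterByExpr (minimum count 10), which kept 10723 genes with 99.21% of counts. All libraries entered 1 fit with a mean for each group, tested with edgeR's quasi-likelihood method (robust, trimmed-mean normalisation; edgeR 4.0.16, limma 3.58.1, R 4.3.3) in 33 contrasts. P-values were adjusted by Benjamini-Hochberg over all 10723 genes. Called means an adjusted p under 0.05. The test was checked on simulated data with independent libraries and the same dispersion for every gene. That check does not cover deviations shared by same-numbered libraries. Alternatives were DESeq2 1.42.0, 2 other scalings, no filter, a replicate block within genotype, and leaving out each library. Same-numbered libraries deviated together in every pair (r over 0.1) for PGE2 in stimulated WT (0.223 to 0.366), PGE2 in unstimulated EP2KO (0.101 to 0.336), stimulation in DKO (0.166 to 0.22), and, in DKO, PGE2 unstimulated (0.161 to 0.326), PGE2 stimulated (0.211 to 0.373) and CM stimulated (0.157 to 0.378). There the replicate numbers were taken to pair the libraries, from this check and not from a label. Comparisons with only 2 same-numbered pairs were not judged, such as PGE2 in unstimulated WT cells (0.251 to 0.293).

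The 53 genes and all lists were chosen with earlier results of these data known. Values in every library are given for the gene with the highest mean CPM of each role, and for the 3 called genes with the largest change in each of 5 WT comparisons. The 2 genes with the smallest change are named too. Other genes described by library, such as Nop2 and the knockout values, were chosen after their values were seen. Gene positions are from GENCODE M21, with 53 of 53 symbols matched. Near-identical copies were sought with blastn 2.17.0 over the last 400 bases of each transcript, at 95% identity or more over at least 200 bases.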

Additional observations from a re-analysis of the deposited data

Results flagged for a closer look

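In groups of 4 libraries, 1 library can stand apart from the other 3. Over 209 such groups, of the summed share and of 18 genes given by library, 10 met Dixon's criterion at 95%. Chance alone gives about 1 in 20, or 10.4. Low libraries were Ncl in EP2KO CM stimulated replicate 3 (2048.6 CPM, others 2420.9 to 2493.6), Gnl3 in WT PGE2 stimulated replicate 3 (252.54, others 319.38 to 331.97), Pes1 in WT CM unstimulated replicate 3 (48.309, others 52.739 to 53.601), and Tsr1 in EP2KO untreated stimulated replicate 4 (94.191, others 150.1 to 160.74). Also low were Utp4 in WT untreated unstimulated replicate 3 (24.353, others 35.138 to 35.478), Grwd1 in EP2KO CM unstimulated replicate 3 (3.9789, others 8.9227 to 9.6355) and Ppan in EP2KO CM unstimulated replicate 4 (17.344, others 20.773 to 21.221). High libraries were Pes1 in WT untreated unstimulated replicate 1 (81.304 CPM, others 66.702 to 68.188), Utp20 in EP2KO PGE2 unstimulated replicate 1 (36.41, others 16.624 to 19.902) and Ppan in WT PGE2 stimulated replicate 1 (73.851, others 47.548 to 50.122).

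For 2 genes the effect of PGE2 in unstimulated cells differed between DKO and EP2KO by the test of the difference, Nop58 (DKO minus EP2KO, log2 0.849143) and Nop2 (1.47186). DKO genotype and sex cannot be told apart.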

How the results depend on the processing

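Of the medians over the 53 genes, 2 near 0 changed sign when 1 library was left out: PGE2 in stimulated DKO cells (0.03, from −0.02 to 0.05) and stimulated EP2KO minus WT (0.00, from −0.10 to 0.09, and also with library totals). Among the fold changes of genes given by library, 1363 kept their side of the threshold under an alternative, 21 passed it and 65 fell short of it, and no called gene changed sign. Scaling by library totals moved the median of all genes by −0.13 to −0.17 for stimulation of untreated cells and by 0.10 to 0.13 for treatments in stimulated WT and EP2KO cells.

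Counts of genes that moved were as follows, with the cause not tested. For PGE2 in unstimulated WT cells the 10 were 4 with no filter and 15 with the replicate block, and 2 to 10 when 1 library was left out. For PGE2 in stimulated EP2KO cells the 18 were 8 with library totals and 32 with the replicate block, and 9 to 25 without 1 library. For CM in stimulated EP2KO cells the 40 were 23 to 43 without 1 library. For CM in stimulated DKO cells the 0 became 1 with the replicate block and 1 with DESeq2, Gnl3 in both. The change of the PGE2 effect with stimulation in WT gave 2 with the replicate block (Ddx27 and Ncl), and 0 to 1 without 1 library. That of CM gave 1 with library totals (Utp4, higher), 3 with the replicate block (Ddx27, Ncl and Npm1) and 2 with DESeq2, and 0 to 1 without 1 library. The PGE2 difference of DKO from EP2KO in unstimulated cells gave 1 with library totals (Nop2), 0 with no filter, and 0 to 2 without 1 library. With the replicate block, the CM difference gave 1 unstimulated (Nop58) and 2 stimulated (Ddx10 and Wdr43). The PGE2 difference in stimulated cells gave 2 with the replicate block (Ddx21 and Ltv1) and 1 with DESeq2 (Ltv1). The block also called 2 genes between untreated unstimulated EP2KO and WT (Heatr1 and Nop58) and 3 between DKO and EP2KO (Nop58, Tsr1 and Wdr43). Other counts stayed within 1.5 times under the block. Among these, PGE2 in unstimulated EP2KO cells went from 18 to 27 and PGE2 in stimulated WT cells from 45 to 49. Of the libraries, 16 of 22 in WT, 18 of 24 in EP2KO and 17 of 18 in DKO correlated best with their own replicate number, a hint from the data and not the design.

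Genes of a few CPM, such as Polr1b, Rcl1 and Grwd1, rest on a few counts per library, which limits their precision.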
